A study of Mus musculus with 9 samples.

Results

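The genes described here encode the subunits of the proteasome and the proteins that assemble, activate or inhibit it. They were taken as every gene whose symbol opens with Psma, Psmb, Psmc, Psmd, Psme, Psmf or Psmg and a number, pseudogenes aside, which gave 50 of the 47729 genes in the count files. Of these, 49 encode proteasome proteins. The symbol rule also caught Psmc3ip, which encodes a meiotic recombination protein named for its binding to a proteasome ATPase, and its values are given apart. The RNA came from midbrain dopamine (DA) neurons of C57/Bl6 mouse embryos, at E15.75 of gestation, and was sequenced with the aim of learning which transcripts depend on Dot1l, the enzyme that methylates histone H3 at K79. All embryos carried Pitx3-Cre/+, a Cre recombinase expressed from the Pitx3 locus in postmitotic DA neurons, and Rosa-lox-stop-lox-Yfp, a reporter that Cre switches on and by which the neurons were sorted. The groups differed in Dot1l alone, since Dot1l(+/+) had no floxed allele, Dot1l(fl/+) had 1 and Dot1l(fl/fl) had 2, so that Cre was present in the controls as well. Embryos were pooled for each library. There were 3 Dot1l(+/+), 3 Dot1l(fl/+) and 2 Dot1l(fl/fl) libraries, and values are listed in the order of their replicate numbers. Dot1l(fl/fl) 3 was not analysed here.

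The proteasome degrades proteins that carry a ubiquitin chain. Its core is a barrel of stacked rings, with outer rings of alpha subunits that gate the entrance and inner rings of beta subunits that hold the proteolytic sites. A regulatory particle caps the barrel, with a base of ATPases that unfold the substrate and a lid that removes the ubiquitin chain, and core and caps together form the 26S particle. Under interferon, inducible beta subunits replace the constitutive catalytic ones and form the immunoproteasome. In neurons the proteasome clears damaged proteins and sets the level of synaptic ones, and its impairment has long been studied in the degeneration of DA neurons.

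Library totals ran from 13616922 to 43674673 counts, and both Dot1l(fl/fl) libraries were the shallowest. Where no count was found, up to 3 counts could be present, which is 0.0687 to 0.220 CPM (counts over the TMM-scaled library total) and covers counting error only. The floxed exon is a small part of the Dot1l transcript, so counts over the gene do not measure its loss. The controls had 105.2, 84.6 and 94.6 CPM of Dot1l, the Dot1l(fl/+) libraries 75.5, 65.6 and 76.2, and those labelled Dot1l(fl/fl) 64.9 and 99.1. The library labelled Dot1l(fl/fl) 2 thus lay within the range of the controls. Values without it are also given for the median and for some single proteasome genes. The 10 DA neuron markers were all expressed and summed to between 4674 and 5652 CPM in Dot1l(fl/fl), 5824 and 6245 in Dot1l(fl/+), and 5831 and 6702 in Dot1l(+/+). In Dot1l(fl/fl), 6 of them were lower at an unadjusted edgeR p under 0.05, where 5.03% of all genes were. The 8 genes of the response to tissue dissociation summed to 1054 and 1076 CPM in the Dot1l(fl/fl) libraries and to between 771 and 986 in the others. In Dot1l(fl/fl), 4 of them were higher at an unadjusted edgeR p under 0.05, where 4.24% of all genes were. The 3 markers of GABAergic neurons summed to between 231.5 and 260.0 CPM in Dot1l(fl/fl) and 200.8 and 216.5 in Dot1l(+/+). Only 1 of them, Slc32a1, was higher at such a p, with a mean of 142.7 CPM in Dot1l(fl/fl) against 110.3 in Dot1l(+/+). Gad2 was at 97.0 against 90.7 and Gad1, in the other direction, at 6.15 against 7.84, both with overlap. Endothelial markers summed to between 9.14 and 11.8 CPM against 4.90 and 8.33, and those of red blood cells to at most 40.0 against at most 18.1. The part of any of these in the values below was not tested. In sorted pools, fewer cells of a kind and less RNA per cell cannot be told apart.

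The symbol rule held 31 genes for subunits of the 26S particle, and every one was expressed in Dot1l(+/+) DA neurons. Shfm1, for the lid subunit Sem1, and Adrm1, for a ubiquitin receptor, fall outside the rule and are given apart below. Their levels per length, as CPM per kb of exon, spanned 11.3-fold. At the top of the order were the core genes Psmb4, at 115.5 ± 13.3 (SD, n = 3), and Psma6, at 111.9 ± 22.6 (SD, n = 3), followed by the ATPase gene Psmc5 at 100.5 ± 7.09 (SD, n = 3) and the catalytic Psmb6 at 90.2 ± 11.7 (SD, n = 3). The lowest were Psma3 (11.3 ± 0.670), the lid gene Psmd11 (10.3 ± 0.609) and Psmb3 (10.2 ± 1.75). Of the 30 pairs of neighbours in this order only 2 lay farther apart than their SDs, Psmb6 from Psmd7 and Psma5 from Psma3. The medians of the groups on this scale were 62.5 for the ATPases, 49.9 for the other base subunits, 41.5 for the beta ring, 40.3 for the lid and 29.8 for the alpha ring. These levels divide by all annotated exons of a gene, so a gene with long exons that these neurons do not use is placed too low.

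**Figure D1:**
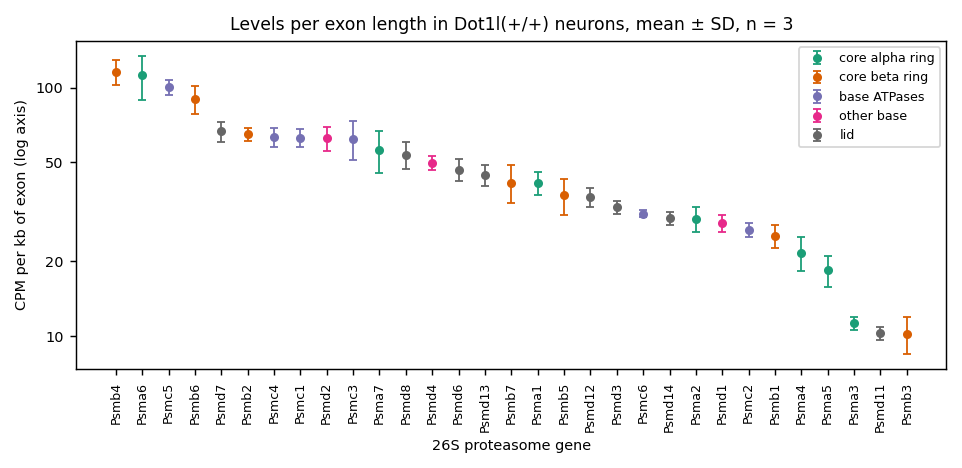
Level of each of the 31 genes of the 26S particle in Dot1l(+/+) neurons, as CPM per kb of exon on a log axis, with points at the mean, bars for the SD over 3 libraries and colours for the subcomplex. Psmb4, Psma6, Psmc5 and Psmb6 form the upper end and Psma3, Psmd11 and Psmb3 the lower end, with all subcomplexes mixed between them.

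The groups of genes for proteins around the particle had medians per length below that of the alpha ring. These were 28.8 CPM per kb for the 5 activator genes, 13.6 for the 4 core assembly chaperones and 10.1 for the 3 base assembly chaperones. The immunoproteasome genes were near the limit of detection, except Psmb10. Psmb8, the inducible counterpart of Psmb5, had 21, 0 and 39 counts in Dot1l(+/+), 39, 15 and 45 in Dot1l(fl/+), and 43 and 5 in Dot1l(fl/fl). Psmb9, the counterpart of Psmb6, had 18 counts in Dot1l(fl/+) 2, 5 in Dot1l(fl/fl) 2 and 0 elsewhere, and it overlaps Tap1 on the other strand, so no fold change is given. Psma8, an alpha subunit of the testis, had at most 13 counts in a library, and Psmb11, the beta subunit of the thymus, at most 7. The last pair did not pass the filter on low counts, which left 48 of the 50 genes in the test.

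RefSeq promoter windows on GRCm38.p6, from 250 bases before to 50 after a transcription start, were found for 42 of the 50 genes. Proteasome genes are known targets of the factor Nrf1 (gene Nfe2l1), which binds antioxidant response elements, and the letters of the element's core, TGACNNNGC, were searched on both strands. They stood in the windows of 6 of the 42 genes (14.3%), against 14.0% of the 27025 genes in the table. The stretches of these 6 are shown since they hold both the constitutive catalytic gene with the smallest p in Dot1l(fl/fl) (Psmb5) and the activator gene with the lowest p in the other direction (Psme4). Each is written 5′ to 3′ on the strand of its gene, with the core in capitals, and the genes with the core on the opposite strand read GCNNNGTCA.
Psmb5 (chr14:54617998-54618078, minus strand): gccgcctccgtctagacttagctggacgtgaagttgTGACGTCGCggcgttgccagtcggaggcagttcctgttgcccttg
Psmb6 (chr11:70525312-70525356, plus strand): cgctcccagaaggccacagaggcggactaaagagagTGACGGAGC
Psmd9 (chr5:123228123-123228189, plus strand): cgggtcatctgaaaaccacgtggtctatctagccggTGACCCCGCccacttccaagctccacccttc
Psme4 (chr11:30771732-30771776, plus strand): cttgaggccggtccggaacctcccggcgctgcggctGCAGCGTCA
Psmc6 (chr14:45329574-45329641, plus strand): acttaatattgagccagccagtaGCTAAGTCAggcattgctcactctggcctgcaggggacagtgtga
Psmd12 (chr11:107479278-107479325, plus strand): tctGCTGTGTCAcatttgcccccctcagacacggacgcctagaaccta

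The core began 47 bases before the start in Psmb5, 31 in Psmd9, 9 in Psmb6 and 7 in Psme4, whereas it lay 227 and 247 bases before it in Psmc6 and Psmd12. The NF-Y box, CCAAT on either strand, stood in 35.7% of the 42 genes against 41.1% of all genes. The GC box bound by Sp1, GGGCGG on either strand, stood in 54.8% of them against 38.2% of all. A match of these letters is a description and not a site of binding. Psma7 and Psmc6, both among the genes with small p in Dot1l(fl/fl), are shown over the 150 bases before the start as examples with several GC boxes, each in capitals and reading CCGCCC where it lies on the other strand. The start of Psma7 is that of RefSeq, and the bases after it did not match a GENCODE transcript of the gene.
Psma7 (chr2:180042465-180042614, minus strand): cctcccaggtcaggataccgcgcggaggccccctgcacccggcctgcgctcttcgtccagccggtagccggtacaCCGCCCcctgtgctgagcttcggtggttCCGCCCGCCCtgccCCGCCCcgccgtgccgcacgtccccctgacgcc
Psmc6 (chr14:45329674-45329823, plus strand): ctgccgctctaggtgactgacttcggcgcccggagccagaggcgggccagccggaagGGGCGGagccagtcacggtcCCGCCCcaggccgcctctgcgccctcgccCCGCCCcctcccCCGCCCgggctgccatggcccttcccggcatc

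The first comparison asks which proteasome transcripts differ in neurons with both Dot1l alleles floxed. In Dot1l(fl/fl) against Dot1l(+/+), no proteasome gene passed an edgeR adjusted p of 0.05, as no gene of the 17988 tested did (0%), and the smallest adjusted p was 0.299 among the proteasome genes and 0.0985 among all genes. Most of the differences were small and positive. Of the 48 genes tested, 42 (87.5%) had a higher fitted level in Dot1l(fl/fl), against 49.5% of all genes, and the median log2 fold change was 0.20 against -0.003 over all genes. The 42 include Psmb9, which had no count in Dot1l(+/+) and passed the filter only through libraries with a floxed allele. Its direction was therefore fixed beforehand. In the fit on mean counts of 50 or more, which leaves Psmb9 out, 40 of 46 genes were higher. The median was the same with Psmb9 set against the floor of 3 counts over the Dot1l(+/+) group. At an unadjusted p under 0.05, 10 were higher (20.8%, where 4.24% of all genes were) and 1 was lower (2.08%, where 5.03% of all genes were). In 15 genes (31.2%) both Dot1l(fl/fl) libraries lay above all 3 Dot1l(+/+) libraries, which held for 12.1% of all genes, and in 2 genes (4.17%) they lay below, which held for 11.6% of all genes. The proteasome genes had a median Dot1l(+/+) level of 101.1 CPM, against 14.5 over all genes tested. The shares over all genes, here and below, are therefore not shares of genes at a like level. Genes of a complex are not independent of each other, and these shares were not tested as a set.

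The differences were also counted by library. The score of a library, the median over the 48 genes of its log2 CPM minus the Dot1l(+/+) mean, was -0.082, 0.14 and -0.081 in the Dot1l(+/+) libraries. It was 0.063, 0.11 and 0.22 in the Dot1l(fl/+) ones, and 0.19 and 0.18 in the Dot1l(fl/fl) ones. The Dot1l(fl/fl) libraries were therefore above every control, yet Dot1l(+/+) 2 lay close to them and above both Dot1l(fl/+) 1 and 2. Dot1l(+/+) 2 was the highest control for 35 of the 48 genes. The difference in mean score between Dot1l(fl/fl) and Dot1l(+/+) was 0.19, and that between Dot1l(fl/+) and Dot1l(+/+) 0.14, where the pooled SD within genotypes was 0.097. Without Dot1l(+/+) 2 the median log2 fold change in Dot1l(fl/fl) was 0.29, and 20 genes had an unadjusted edgeR p under 0.05, in place of 11, while over all genes that number went from 1667 to 2398. Without Dot1l(+/+) 1 or Dot1l(+/+) 3 the number was 2, with 1197 and 1039 over all genes, and the medians were 0.15 and 0.16. When Dot1l(fl/fl) 2 was left out the median was 0.18, with 40 genes higher.

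**Figure D2:**
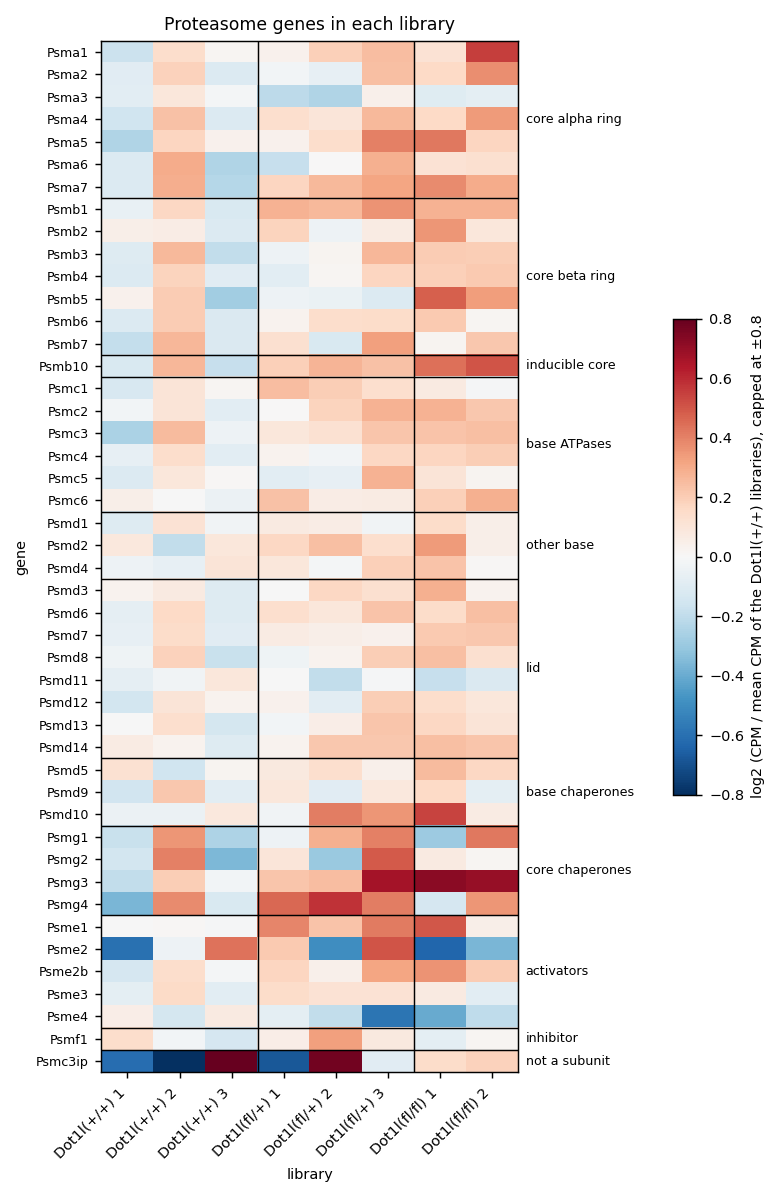
Log2 ratio of the CPM in each library to the mean of the Dot1l(+/+) libraries for the 46 genes with a Dot1l(+/+) mean of at least 2 CPM, with rows grouped by subcomplex and colours capped at ±0.8. The columns of all Dot1l(fl/+) and Dot1l(fl/fl) libraries are mostly red, and so is that of Dot1l(+/+) 2. Psme4 is blue in all 5 libraries with a floxed allele and in Dot1l(+/+) 2.

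Another measure moved with the score. In each library, the median of the shortest tercile of all genes by exon length was compared with that of the longest tercile, again as log2 CPM over the Dot1l(+/+) mean. The difference was -0.031, 0.16 and -0.11 in the Dot1l(+/+) libraries, 0.083, 0.068 and 0.25 in the Dot1l(fl/+) ones, and 0.29 and 0.16 in the Dot1l(fl/fl) ones. The libraries in which short genes stood higher were those in which proteasome genes stood higher, Dot1l(+/+) 2 among them. The proteasome genes had a median exon length of 2804 bases, against 3827 over all genes tested, and a like GC content (49.8% against 49.4%). The difference between the tercile of all genes richest in GC and the poorest was 0.115 in Dot1l(fl/fl) 1 and -0.174 in Dot1l(fl/fl) 2. In the other libraries it lay between -0.056 and 0.072, and its part apart from that of length was not tested. In a fit that offset each library's trend with exon length and GC, the median log2 fold change of the proteasome genes was 0.13 in Dot1l(fl/fl). It was 0.095 for 1 floxed allele. In each, 39 of 48 genes were higher, Psmb9 among them. A smaller median difference of the same direction was thus left after the offset. Single genes moved by unlike amounts in Dot1l(fl/fl), Psmb6 from 0.11 to 0.032, Psmc1 from 0.034 to -0.066 and Psma7 from 0.34 to 0.35.

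**Figure D3:**
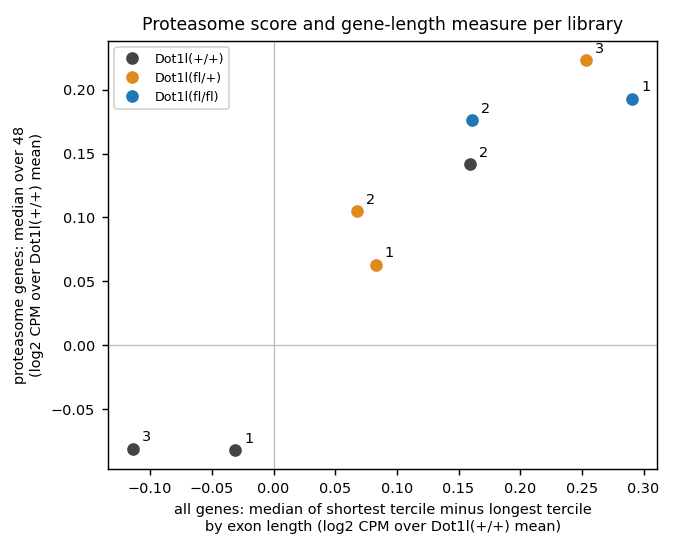
Score of the 48 proteasome genes in each of the 8 libraries (vertical axis, log2) against the difference between the shortest and the longest tercile of all genes by exon length (horizontal axis, log2), with colours for the genotype and numbers for the replicate. Both measures are lowest in Dot1l(+/+) 1 and 3 and highest in Dot1l(fl/+) 3 and Dot1l(fl/fl) 1, and Dot1l(+/+) 2 lies beside Dot1l(fl/fl) 2.

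Within the 26S particle, 29 of the 31 genes (93.6%, against 49.5% of all genes) had a higher fitted level in Dot1l(fl/fl), their median log2 fold change being 0.20. Of them 7 (22.6%, against 4.24% of all genes) were higher at an unadjusted edgeR p under 0.05. The alpha ring had 6 of 7 genes higher and a median of 0.27. Psma7, an alpha subunit, was at 159.3, 210.3 and 147.0 CPM in the Dot1l(+/+) libraries, 194.3, 205.9 and 214.7 in the Dot1l(fl/+) ones, and 223.8 and 211.7 in the Dot1l(fl/fl) ones. Both Dot1l(fl/fl) libraries exceeded the controls, though Dot1l(+/+) 2 fell short by little. Its log2 fold change was 0.34 ± 0.12 (SE, edgeR adjusted p = 0.349, unadjusted 0.0115). Psma7 was the only proteasome gene to pass the threshold when a library was left out, and it did so without Dot1l(+/+) 2, with a log2 fold change of 0.51 and an edgeR adjusted p of 0.0353.

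Psma1, another alpha subunit, was at 108.2, 134.1 and 122.9 CPM in Dot1l(+/+) and at 131.7 and 178.8 in Dot1l(fl/fl), so that the groups overlapped. Its log2 fold change of 0.35 ± 0.13 (SE, edgeR adjusted p = 0.354, unadjusted 0.012) rested on Dot1l(fl/fl) 2, since it was 0.11 without that library and 0.55 without Dot1l(fl/fl) 1. Psma2 was at 102.5, 124.0 and 101.3 CPM in Dot1l(+/+) and 122.3 and 141.3 in Dot1l(fl/fl), with a log2 fold change of 0.27 ± 0.13 (SE, edgeR adjusted p = 0.516, unadjusted 0.0423). Psma3, a further alpha subunit, went the other way, at 43.9 ± 2.61 CPM (SD, n = 3) in Dot1l(+/+) and 41.3 ± 0.398 (SD, n = 2) in Dot1l(fl/fl), a log2 fold change of -0.088 ± 0.15 (SE). The difference for Psma3 was smaller than its error.

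All 7 genes of the constitutive beta ring had a higher fitted level in Dot1l(fl/fl), with a median log2 fold change of 0.20. The catalytic subunits are given one by one, and differences between them were not tested. Psmb5, the chymotrypsin-like subunit and the main target of proteasome inhibitor drugs, was at 34.0, 38.3 and 27.4 CPM in the Dot1l(+/+) libraries, 32.3, 32.0 and 30.8 in the Dot1l(fl/+) ones, and 46.2 and 41.9 in the Dot1l(fl/fl) ones. The Dot1l(fl/fl) libraries lay above all 6 others, and the Dot1l(fl/+) libraries lay inside the control range. The log2 fold change in Dot1l(fl/fl) was 0.41 ± 0.17 (SE, edgeR adjusted p = 0.443, unadjusted 0.0226).

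Psmb6, the caspase-like subunit, was at 156.8, 194.1 and 155.6 CPM in Dot1l(+/+) and at 195.0 and 170.3 in Dot1l(fl/fl), a log2 fold change of 0.11 ± 0.12 (SE, edgeR adjusted p = 0.849). Psmb7, the trypsin-like subunit, was at 124.5, 170.3 and 130.8 CPM in Dot1l(+/+) and at 143.8 and 164.7 in Dot1l(fl/fl), a log2 fold change of 0.12 ± 0.14 (SE, edgeR adjusted p = 0.883). In both of these the Dot1l(fl/fl) libraries overlapped the range of the controls. Among the structural beta subunits, Psmb1 was at 111.8, 130.8 and 107.4 CPM in Dot1l(+/+), 141.7, 139.5 and 150.0 in Dot1l(fl/+), and 141.3 and 141.6 in Dot1l(fl/fl). All 5 libraries with a floxed allele were higher in Psmb1 than every control, and its log2 fold change was 0.28 ± 0.11 (SE, edgeR adjusted p = 0.428, unadjusted 0.0208).

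Psmb10, the inducible counterpart of Psmb7, was the only immunoproteasome gene with an appreciable level. It was at 15.1, 19.8 and 14.5 CPM in the Dot1l(+/+) libraries, 18.8, 19.9 and 19.4 in the Dot1l(fl/+) ones, and 22.3 and 23.3 in the Dot1l(fl/fl) ones. Both Dot1l(fl/fl) libraries exceeded the other 6, with a log2 fold change of 0.47 ± 0.20 over Dot1l(+/+) (SE, edgeR adjusted p = 0.47, unadjusted 0.0288). Of the 15 genes of the interferon response and antigen presentation that were listed, 12 passed the filter, 7 of which had a higher fitted level in Dot1l(fl/fl), and their median log2 fold change was 0.10. At an unadjusted edgeR p under 0.05 none was higher and 1 was lower, where 4.24% and 5.03% of all genes were. B2m, the light chain of class I molecules, was at 11.6 ± 0.568 CPM (SD, n = 3) in Dot1l(+/+) and 13.2 ± 2.23 (SD, n = 2) in Dot1l(fl/fl). Tapbp, which loads peptides on class I molecules, was at 21.5, 17.5 and 20.6 CPM in Dot1l(+/+) and at 15.1 and 13.5 in Dot1l(fl/fl), a log2 fold change of -0.47 ± 0.21 (SE, edgeR adjusted p = 0.491, unadjusted 0.0354). Leukocytes are known to be rich in immunoproteasome, and their markers summed to between 98.0 and 120.1 CPM in Dot1l(+/+) and to between 111.1 and 127.3 in Dot1l(fl/fl). Ptprc, which marks leukocytes as a whole, had a mean of 0.990 CPM among the controls, 2.37 with 1 floxed allele and 2.04 with 2. Every library with a floxed allele lay above every control for Ptprc. Its log2 fold change for Dot1l(fl/fl) was 1.05 ± 0.68 (SE, edgeR adjusted p = 0.687). Of the 8 leukocyte markers, 7 had a higher fitted level in Dot1l(fl/fl), none of them at an unadjusted edgeR p under 0.05. None of the 8 was at 0, and their part in the level of Psmb10 was not tested.

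The 6 base ATPases all had a higher fitted level in Dot1l(fl/fl), by between 0.034 and 0.25 on the log2 scale. Psmc2 was at 132.7, 144.6 and 127.3 CPM in Dot1l(+/+) and at 163.5 and 156.7 in Dot1l(fl/fl), with no overlap and a log2 fold change of 0.25 ± 0.11 (SE, edgeR adjusted p = 0.494, unadjusted 0.0362). Psmc6 was at 112.4, 108.7 and 105.3 CPM in Dot1l(+/+) and at 124.0 and 132.4 in Dot1l(fl/fl), likewise with no overlap and with a log2 fold change of 0.24 ± 0.11 (SE, edgeR adjusted p = 0.517, unadjusted 0.0429). The remaining ATPases had log2 fold changes of 0.23 for Psmc3, 0.18 for Psmc4, 0.064 for Psmc5 and 0.034 for Psmc1, with SE between 0.11 and 0.12. Psmc1 and Psmc5 thus differed by less than their error from Dot1l(+/+).

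Among the other Psmd genes of the base and lid, none reached an unadjusted edgeR p under 0.05. Psmd2, the scaffold of the base, was at 252.8 ± 27.5 CPM (SD, n = 3) in Dot1l(+/+) and 290.4 ± 42.1 (SD, n = 2) in Dot1l(fl/fl). The ubiquitin receptor Psmd4 was at 140.2 ± 8.87 CPM (SD, n = 3) and 152.5 ± 16.3 (SD, n = 2). Both differences lay within the spread of the libraries. Of the 8 lid genes 7 had a higher fitted level, with a median log2 fold change of 0.18. Psmd14, the deubiquitinase that cuts the chain from the substrate, was at 88.0, 85.8 and 78.2 CPM in Dot1l(+/+) and at 99.3 and 97.8 in Dot1l(fl/fl), without overlap, and its log2 fold change was 0.23 ± 0.12 (SE, edgeR adjusted p = 0.561). Psmd11, a lid subunit whose level is known to limit 26S assembly in stem cells, was at 62.5, 64.4 and 70.0 CPM in Dot1l(+/+) and at 57.7 and 60.6 in Dot1l(fl/fl), a log2 fold change of -0.15 ± 0.13 (SE, edgeR adjusted p = 0.81). Of the 31 genes of the 26S particle in the symbol rule, it alone had both Dot1l(fl/fl) libraries below all controls.

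**Figure D4:**
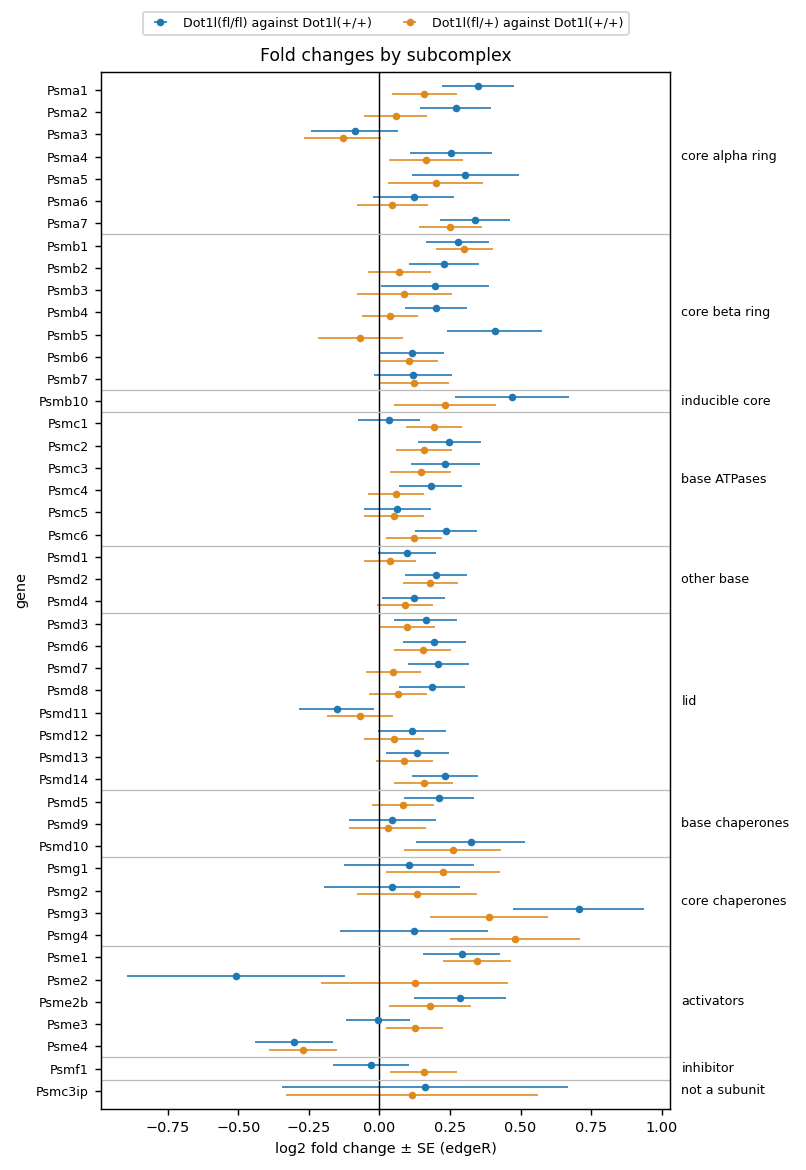
Log2 fold change with its standard error (edgeR) of Dot1l(fl/fl) and of Dot1l(fl/+) against the same Dot1l(+/+) libraries for the 46 genes with a Dot1l(+/+) mean of at least 2 CPM, grouped by subcomplex. Most points lie between 0 and 0.5, and Psmg3 has the highest value in Dot1l(fl/fl). Psme4, Psma3 and Psmd11 lie below 0 in both comparisons. Psme2, Psme3 and Psmf1 do so in Dot1l(fl/fl) alone and Psmb5 in Dot1l(fl/+) alone.

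The assembly chaperones included the smallest p of all. Psmg3, which with Psmg4 helps to build the alpha ring, was at 9.2, 12.1 and 10.4 CPM in the Dot1l(+/+) libraries, 12.3, 12.5 and 16.7 in the Dot1l(fl/+) ones, and 17.4 and 17.1 in the Dot1l(fl/fl) ones. The genotypes did not overlap for this gene in any pair. Its log2 fold change in Dot1l(fl/fl) was 0.71 ± 0.23 (SE, edgeR adjusted p = 0.299, unadjusted 0.0057), and between 0.62 and 0.81 when each library was left out in turn. Psmg3 overlaps Gm26938 on its own strand, and how shared reads were counted is not given in the sources used here. Its partner Psmg4 was at 8.0, 13.4 and 9.5 CPM in Dot1l(+/+), 14.2, 15.4 and 13.7 in Dot1l(fl/+), and 9.4 and 13.2 in Dot1l(fl/fl), so that Dot1l(fl/+) and not Dot1l(fl/fl) lay above the controls. Psmg1 and Psmg2, which form the other chaperone pair of the alpha ring, had log2 fold changes of 0.10 ± 0.23 and 0.044 ± 0.24 (SE) in Dot1l(fl/fl). The signs for Psmg1 and Psmg4 turned on Dot1l(fl/fl) 2. Their log2 fold changes were 0.10 and 0.12 with that library and -0.29 and -0.14 without it. The base chaperones Psmd5, Psmd9 and Psmd10 had log2 fold changes of 0.21, 0.045 and 0.32, with unadjusted edgeR p of 0.102, 0.772 and 0.107 and the smallest adjusted p 0.636.

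The activators, which open the core in place of the regulatory particle, were mixed, with 2 of 5 genes higher in Dot1l(fl/fl) and a median log2 fold change of -0.004. Psme4, the large activator PA200, was at 110.4, 96.6 and 111.9 CPM in the Dot1l(+/+) libraries, 100.9, 92.6 and 70.9 in the Dot1l(fl/+) ones, and 80.4 and 92.2 in the Dot1l(fl/fl) ones. Both Dot1l(fl/fl) libraries were below all controls, and the log2 fold change was -0.30 ± 0.14 (SE, edgeR adjusted p = 0.5, unadjusted 0.038). Psme4 has the longest exons of the proteasome genes here, 8382 bases. With the length and GC offset its log2 fold change was -0.23, and 0 proteasome genes were lower at an unadjusted edgeR p under 0.05. Psme1, a subunit of the interferon-inducible PA28, was at 63.6, 64.1 and 63.3 CPM in Dot1l(+/+), 83.4, 74.6 and 85.0 in Dot1l(fl/+), and 90.0 and 65.7 in Dot1l(fl/fl). All libraries with a floxed allele exceeded the narrow range of the controls, but the Dot1l(fl/fl) value rested on its first library. The log2 fold change of Psme1 was 0.29 ± 0.14 (SE, edgeR adjusted p = 0.513, unadjusted 0.0413), 0.042 without Dot1l(fl/fl) 1 and 0.50 without Dot1l(fl/fl) 2.

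Psme2, the partner of Psme1 in PA28, was at 4.0, 5.9 and 8.2 CPM in Dot1l(+/+) and at 3.9 and 4.7 in Dot1l(fl/fl), a log2 fold change of -0.51 ± 0.39 (SE, edgeR adjusted p = 0.751). Its near-identical copy Psme2b was at 29.3, 35.4 and 31.8 CPM in Dot1l(+/+) and at 41.3 and 37.1 in Dot1l(fl/fl), a log2 fold change of 0.29 ± 0.16 (SE, edgeR adjusted p = 0.621). Since reads can be split between these copies, the level and the difference of either alone are uncertain. Psme3, which forms the nuclear PA28 gamma, was at 112.7 ± 10.7 CPM (SD, n = 3) in Dot1l(+/+) and 112.4 ± 8.60 (SD, n = 2) in Dot1l(fl/fl). The inhibitor Psmf1 was at 67.7 ± 6.61 CPM (SD, n = 3) and 66.3 ± 3.08 (SD, n = 2). For both the difference was far below its error. Psmc3ip, which is no subunit, was at 3.52 ± 2.35 CPM (SD, n = 3) and 3.96 ± 0.107 (SD, n = 2).

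**Figure D5:**
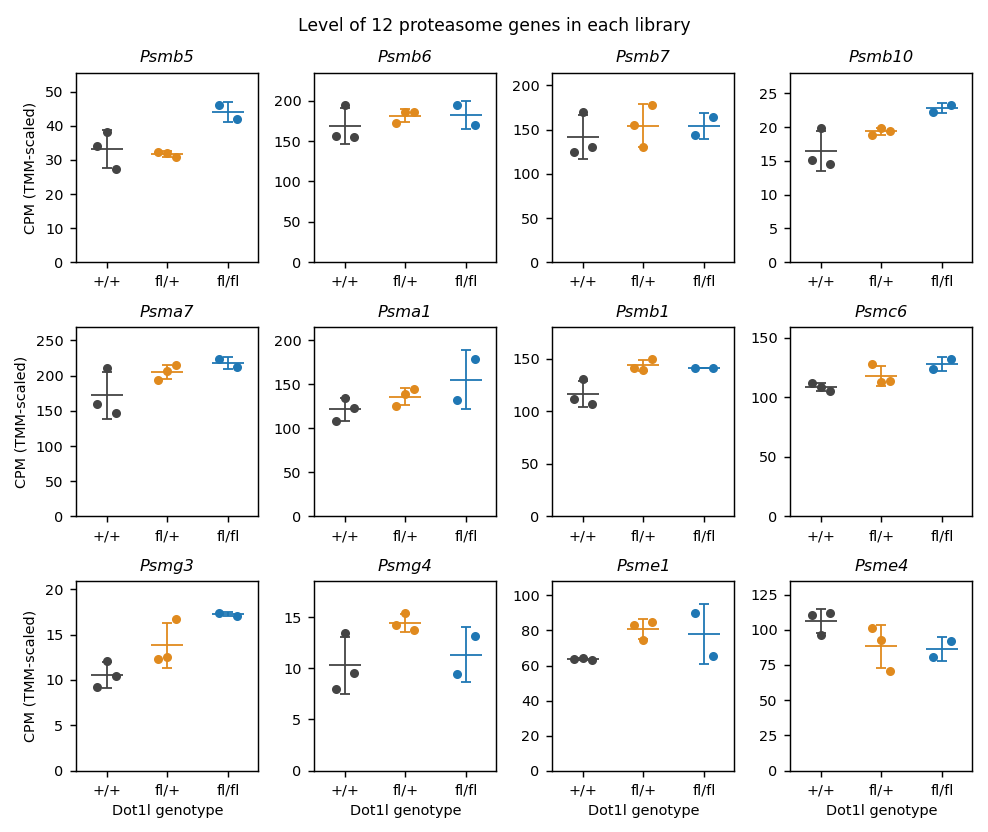
CPM in each library for 12 genes, with a point for each library, a horizontal line at the mean and bars for the SD (n = 3, 3 and 2) on axes that start at 0. Psmb5 and Psmb10 are highest in both Dot1l(fl/fl) libraries, Psmg4 in Dot1l(fl/+), Psmb6 and Psmb7 overlap between all genotypes, and Psme4 is lower in both Dot1l(fl/fl) libraries than in the controls.

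What the loss of 1 allele does was asked by comparing Dot1l(fl/+) with Dot1l(+/+), which uses the same control libraries as the comparison above. No gene passed an adjusted p of 0.05 by edgeR (0% of 17988), with a smallest adjusted p of 0.94. Of the 48 proteasome genes 44 (91.7%) had a higher fitted level, against 49.0% of all genes. The 44 again include Psmb9, and in the fit on mean counts of 50 or more, without Psmb9, 42 of 46 were higher. The median log2 fold change over the 48 was 0.12 against -0.007 over all genes. At an unadjusted p under 0.05, 4 were higher (8.33%, where 2.16% of all genes were) and 1 was lower (2.08%, where 2.86% of all genes were). All Dot1l(fl/+) libraries lay above all controls for 7 genes (14.6%), which held for 5.56% of all genes, and below them for none, where 5.97% of all genes did. Without Dot1l(+/+) 2 the number at an unadjusted edgeR p under 0.05 was 14, in place of 5. Over all genes that number went from 903 to 1493. Without Dot1l(+/+) 1 or Dot1l(+/+) 3 it was 2, with 700 and 639 over all genes. Without Dot1l(fl/+) 3 it was also 2, with 716 over all genes. The median was then 0.090, with 35 proteasome genes higher.

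The 4 genes were Psmb1, with a log2 fold change of 0.30 ± 0.10 (SE, edgeR adjusted p = 0.94, unadjusted 0.00634), Psme1 (0.35 ± 0.12, unadjusted 0.00828), Psma7 (0.25 ± 0.11, unadjusted 0.0329) and Psmg4 (0.48 ± 0.23, unadjusted 0.0481). The lower one was again Psme4, at -0.27 ± 0.12 (SE, edgeR adjusted p = 0.94, unadjusted 0.0353), and at -0.235 with the length and GC offset. Next in the lower direction came Psma3 at -0.13 ± 0.14, Psmd11 at -0.068 ± 0.12 and Psmb5 at -0.068 ± 0.15 (SE), each within its error. Psmc1, the ATPase with the smallest difference in Dot1l(fl/fl), was at 110.9, 130.3 and 122.8 CPM in Dot1l(+/+) and at 144.3, 139.4 and 133.1 in Dot1l(fl/+), without overlap, a log2 fold change of 0.20 ± 0.099 (SE, edgeR adjusted p = 0.94, unadjusted 0.0602). Of the 31 genes of the 26S particle in the symbol rule, 28 had a higher fitted level, with a median of 0.090.

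Between the genotypes with floxed alleles the share of proteasome genes at a small p was near that of all genes, while more of them than of all genes had a higher fitted level. In Dot1l(fl/fl) against Dot1l(fl/+) no gene passed an adjusted p of 0.05 by edgeR (0% of 17988), 35 of the 48 proteasome genes (72.9%) had a higher fitted level, where 50.2% of all genes did, and the median log2 fold change was 0.063 against 0.001 over all genes. Of the 31 genes of the 26S particle 27 (87.1%) were higher. At an unadjusted p under 0.05, 1 gene was higher (2.08%, where 1.86% of all genes were) and none was lower (where 2.16% of all genes were). The gene was Psmb5, with a log2 fold change of 0.48 ± 0.17 (SE, edgeR adjusted p = 0.998, unadjusted 0.0091). After it came Psma2 (0.21 ± 0.13), Psma1 (0.19 ± 0.13) and Psmd7 (0.16 ± 0.11), with unadjusted edgeR p of 0.106 and above. In the lower direction were Psme2 (-0.63 ± 0.39), Psmc1 (-0.16 ± 0.11), Psmf1 (-0.19 ± 0.13) and Psmg4 (-0.36 ± 0.26, SE throughout). No proteasome gene thus differed detectably between 1 and 2 floxed alleles at this number of libraries.

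Other genes of the pathway were listed by their roles. Among proteins bound to the proteasome but outside the symbol rule, 7 of the 11 tested had a higher fitted level in Dot1l(fl/fl), their median log2 fold change being 0.074, and 1 was higher at an unadjusted edgeR p under 0.05, where 4.24% of all genes were. It was Shfm1, which encodes the small lid subunit Sem1, at 43.3, 39.1 and 45.7 CPM in Dot1l(+/+), 52.7, 51.5 and 60.7 in Dot1l(fl/+), and 58.9 and 57.7 in Dot1l(fl/fl). Every library with a floxed allele was higher than every control, and the log2 fold change in Dot1l(fl/fl) was 0.45 ± 0.14 (SE, edgeR adjusted p = 0.281, unadjusted 0.00417). Pomp, the maturation factor of the core, had a log2 fold change of 0.12 and Adrm1, a ubiquitin receptor, one of -0.070, neither beyond its error.

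Of the 10 regulators of proteasome gene transcription, 3 had a higher fitted level in Dot1l(fl/fl), with a median log2 fold change of -0.059. At an unadjusted edgeR p under 0.05, 1 was higher and 1 lower, where 4.24% and 5.03% of all genes were. Nfe2l1, which encodes Nrf1, was at 224.4, 213.6 and 237.4 CPM in Dot1l(+/+) and at 230.3 and 186.1 in Dot1l(fl/fl), a log2 fold change of -0.11 ± 0.11 (SE, edgeR adjusted p = 0.838). Ddi2, the protease that activates Nrf1, was at 46.8, 33.4 and 37.9 CPM in Dot1l(+/+) and at 30.1 and 29.6 in Dot1l(fl/fl), a log2 fold change of -0.40 ± 0.17 (SE, edgeR adjusted p = 0.473, unadjusted 0.0298). Maff, a small Maf protein that pairs with Nrf factors, was at 10.7, 16.2 and 10.2 CPM and at 14.5 and 22.4, a log2 fold change of 0.57 ± 0.26 (SE, edgeR adjusted p = 0.494, unadjusted 0.0364), and was high in Dot1l(fl/fl) 2 alone.

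Of the 16 genes of ubiquitin and of delivery to the proteasome, 11 had a higher fitted level in Dot1l(fl/fl), with a median log2 fold change of 0.048. At an unadjusted edgeR p under 0.05, 2 were higher and 2 lower, where 4.24% and 5.03% of all genes were. Ubb, a polyubiquitin gene, was at 299.3, 313.0 and 211.5 CPM in Dot1l(+/+), 349.0, 306.5 and 343.3 in Dot1l(fl/+), and 397.3 and 356.5 in Dot1l(fl/fl). Both Dot1l(fl/fl) libraries lay above the other 6, and the log2 fold change was 0.46 ± 0.13 (SE, edgeR adjusted p = 0.245, unadjusted 0.00124). Faf1, an adaptor of the segregase Vcp, had a log2 fold change of 0.24 ± 0.11 (SE, edgeR adjusted p = 0.529, unadjusted 0.0465), while the shuttle Ubqln2 was at 365.1, 341.2 and 376.5 CPM in Dot1l(+/+) and at 298.1 and 305.0 in Dot1l(fl/fl), a log2 fold change of -0.26 ± 0.094 (SE, edgeR adjusted p = 0.349, unadjusted 0.0112). Rps27a, a ubiquitin-ribosome fusion gene with many processed copies in the genome, was at only 5.42 ± 1.12 CPM (SD, n = 3) in Dot1l(+/+), so its counts, and a log2 fold change of -0.88, are uncertain.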

How the data were processed

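For each of the 8 libraries analysed here the authors deposited raw read counts (whole numbers, unnormalised) by Ensembl gene. The labels' processing notes name bcl2fastq 2.17, Trimmomatic 0.30, DESeq2 1.10.1 and GRCm38.p4, and the study's methods a directional kit (NEBNext). How reads were counted, with which strand setting, and what was done with reads shared between genes are not given in the sources used here, so near-identical and overlapping genes are uncertain. The authors' tables of their own comparisons, with fold changes and p-values, were read for gene symbols only.

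Groups and replicate numbers came from the sample titles. The test was edgeR's quasi-likelihood F test (4.0.16, R 4.3.3), with TMM factors, on the 17988 genes that filterByExpr kept. The 3 genotypes were fitted together with no covariate. Benjamini-Hochberg adjustment covered every gene tested, and the threshold was 0.05. CPM used TMM factors. Exon lengths and GC content came from the GENCODE annotation of GRCm38, which held 99.1% of the gene identifiers, and promoters from RefSeq (GRCm38.p6). The scripts were tested on simulated counts.

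The members, the gene lists and the tests were chosen with earlier results of these data known. Named with their values, whatever they showed, were the catalytic and inducible core subunits, the ATPases, Psmd2, Psmd4, Psmd14, the activators, inhibitor and core chaperones, Psmc3ip and Dot1l. The others named were, in each comparison, the 4 members with the smallest p in each direction and all members at an unadjusted p under 0.05. Members singled out outside this rule (in the order of levels, the promoters and the base chaperones) were chosen after their values were seen.

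The alternatives were RLE and upper-quartile factors, no filter, mean counts of 50 or more, DESeq2 1.42.0, only the 2 genotypes compared, counts thinned to the smallest library, the replicate number as a block, a length and GC offset (splines with 4 degrees of freedom), block and offset together, and each library left out in turn. The chi-square per degree of freedom between libraries of a genotype was 17.4 to 42.2. Per the study's methods the pools were built from sets of the genotypes matched by litter. The labels tie no replicate number to a litter, so the main fit was not paired, and p-values measure the spread between these libraries only.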

Additional observations from a re-analysis of the deposited data

How the results depend on the processing

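Under every alternative run, the median log2 fold change of the proteasome genes kept its sign, at 0.13 to 0.29 (Dot1l(fl/fl) against control), 0.088 to 0.19 (Dot1l(fl/+) against control) and 0.030 to 0.12 (Dot1l(fl/fl) against Dot1l(fl/+)). With 1 library left out the medians were 0.152 to 0.285, 0.088 to 0.190 and 0.030 to 0.116. No proteasome gene passed the threshold in any alternative except Psma7 without Dot1l(+/+) 2, and with DESeq2 the smallest adjusted p of these genes in Dot1l(fl/fl) was 0.102.

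The number of genes of the whole genome called between Dot1l(fl/fl) and the controls, 0 by edgeR with 1667 at an unadjusted p under 0.05, was 106 without a filter, 2 at a mean count of at least 50, 226 with DESeq2, 4 in thinned counts, 6 with the length and GC offset and 0 to 75 with 1 library left out, the highest without Dot1l(+/+) 2, with 50 without Dot1l(fl/fl) 2. The 11 proteasome genes at an unadjusted p under 0.05 became 7 with the 2 genotypes alone and 2 to 20 with 1 library left out, at 2 without Dot1l(+/+) 1 or 3, 6 without Dot1l(fl/fl) 1 and 20 without Dot1l(+/+) 2. In Dot1l(fl/+) against Dot1l(+/+), 11 genes were called without a filter, and the 5 proteasome genes became 2 to 14 with 1 library left out. In Dot1l(fl/fl) against Dot1l(fl/+), 14 genes were called without a filter, 1 with DESeq2 and 0 to 7 with 1 library left out, and the 1 proteasome gene became 1 to 2. The cause was not tested. Where a single Dot1l(fl/fl) library was left, it was assumed to vary like the other groups.

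Deviations from the genotype means correlated between -0.031 and 0.045 for libraries with the same replicate number and between -0.051 and 0.045 for the others. Deviations within a genotype are tied to each other when so few libraries are centred, and those of the Dot1l(fl/fl) libraries mirror one another. Whether the replicate numbers pair the libraries can therefore not be decided from these values. With the replicate block, Dot1l(fl/fl) differed from the controls in 6 called genes and from Dot1l(fl/+) in 4, with 6 proteasome genes at an unadjusted p under 0.05 in the first. With the replicate block and the offset together 15 and 5 genes were called. Medians and other calls stayed on their side of the threshold under the block.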

Other observations

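Of the 4 proteasome pseudogenes with a symbol of this family, 3 (Psmb5-ps, Psmb6-ps and Psmb7-ps2) had no count in any library. Psmb6-ps2, a processed copy related to the caspase-like subunit gene, was at 6.0, 9.3 and 6.0 CPM in Dot1l(+/+), 6.2, 10.2 and 11.9 in Dot1l(fl/+), and 12.3 and 9.6 in Dot1l(fl/fl). Both Dot1l(fl/fl) libraries lay above all controls, with a log2 fold change of 0.62 ± 0.31 (SE, edgeR adjusted p = 0.555, unadjusted 0.0567), where Psmb6 itself had 0.11. Reads of the copy and of Psmb6 may have been split between them.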
